A study of Drosophila melanogaster with 10 samples.

Results

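The genes of the fly phototransduction cascade were compared in brains of male Drosophila melanogaster on 2 diets. The set held 10 genes, chosen by name from the 11621 genes of the deposited table: ninaE, Ggamma30A, norpA, trp, trpl, inaD, inaC, ninaC, Arr1 and Arr2. All 10 were found, and all 10 passed the filter on low values, a mean normalised count of at least 10. The flies were w1118, a laboratory strain that carries a mutation of the white eye-colour gene, and were aged 4 to 7 days. One diet was low in protein and high in carbohydrate (LPHC, protein to carbohydrate 0 to 1) and the other high in protein and low in carbohydrate (HPLC, 1 to 2). Both were given at 360 g per L, and each diet had 5 libraries. Genotype, sex and age were shared by both groups. Separate rearing of the replicates is not stated, and p-values therefore measure only library-to-library spread, part of which may be technical.

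In the fly eye, light converts rhodopsin to metarhodopsin, which activates a Gq protein and through it a phospholipase C. Hydrolysis of the membrane lipid PIP2 then opens the TRP and TRPL cation channels and depolarises the photoreceptor. The signal is shut off when arrestin binds metarhodopsin and when an eye-specific protein kinase C acts on a protein complex held together by the scaffold INAD. These proteins lie in the rhabdomere, the stack of microvilli of the photoreceptor in the retina, and several of the genes were first found in mutants with an abnormal electrical response to light.

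The cascade genes took many of the reads of these brain libraries. By mean normalised count over the 10 libraries, which also grows with transcript length, ninaE ranked 1, Arr2 ranked 2, Arr1 ranked 3 and trpl ranked 4 of all genes. The genes ninaC, trp and Ggamma30A ranked 7 to 9, norpA ranked 26, inaC ranked 103 and inaD ranked 220. The tissue is labelled brain, and whether any retina remained attached is not stated. Other photoreceptor genes were also read: chp, which encodes the photoreceptor surface protein chaoptin, had a mean of 61843 ± 5833 on LPHC (normalised count, SD, n = 5), and Rh3, a rhodopsin of inner photoreceptors, had 78662 ± 3700. In whole-tissue RNA, fewer cells of a type and less RNA per cell cannot be told apart. Libraries held 19834344 to 38402635 recovered reads.

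The first question was whether transcripts of the cascade differed between diets. The rhodopsin gene ninaE, the kinase gene inaC and the G protein gene Ggamma30A were lower on HPLC. No cascade gene was called higher. The falls were of modest size, 18.4% in the mean for ninaE, 17.2% for inaC and 12.0% for Ggamma30A. The channel gene trp had nearly equal means on the 2 diets. Of the 10 genes 3 were called lower (limma, Benjamini-Hochberg adjusted p under 0.05), beside 18.9% of all 9896 tested genes called lower and 22.1% called higher. The count alone does not set the cascade apart from that background. All 10 log2 fold changes (HPLC relative to LPHC, in units of log2(value + 1)) were below 0, with a median of −0.14, where the median of all tested genes was −0.03. That common sign depended on the scaling: 9 were below 0 under TMM scaling and 6 under quantile normalization. Quantile normalization held the other 4 (ninaE, Arr2, Arr1 and trpl) at 0 by their ranks. After scaling to a set of neuron markers 5 were below 0. After scaling to photoreceptor genes outside the 10, some of them also of phototransduction, 2 were below 0.

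**Figure D1:**
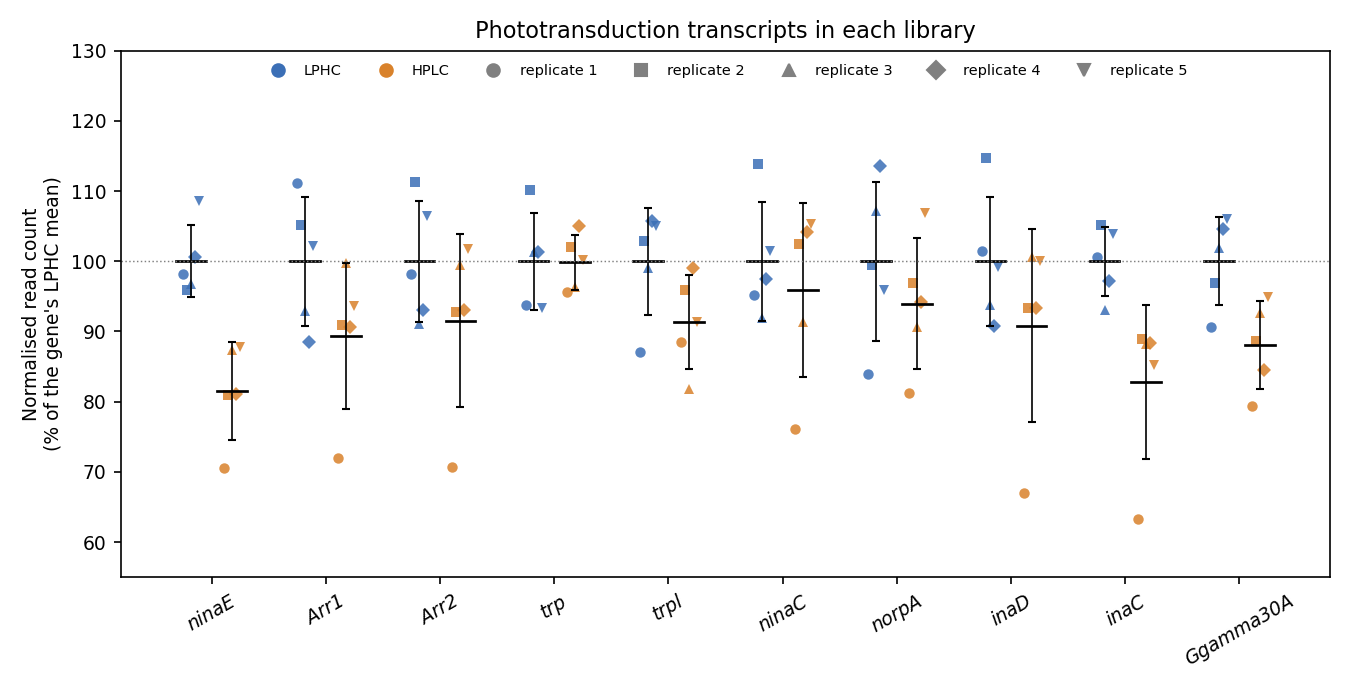
Normalised count of each cascade gene in each library, as a percent of that gene's LPHC mean (y axis), by gene (x axis) and diet. Points are libraries, with a marker shape for each replicate number, the line is the mean and the bar the SD (n = 5). The diets do not overlap for ninaE and inaC, and HPLC replicate 1 is the lowest HPLC library for 9 of the 10 genes.

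The opsin gene ninaE encodes Rh1, the visual pigment of the outer photoreceptors R1 to R6. Its normalised counts in LPHC replicates 1 to 5 were 1565689, 1529446, 1544932, 1604633 and 1732433, and in HPLC replicates 1 to 5 they were 1125029, 1291617, 1394562, 1293959 and 1400679. Every HPLC library lay below every LPHC library. The mean was 1595426 ± 81614 on LPHC and 1301169 ± 111572 on HPLC, and the log2 fold change was −0.30 ± 0.07 (SE, 95% interval −0.46 to −0.14, limma adjusted p = 0.00448). A lower log2 fold change than that of ninaE was found for 10.2% of tested genes. Transcripts of ninaE made up 5.78% ± 0.295 of the table's total on LPHC and 4.50% ± 0.361 on HPLC (exact permutation p = 0.00794, two-sided, the smallest that 5 against 5 libraries can give). The table's total was larger in every HPLC library, so equal counts give a lower share there.

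The gene Ggamma30A encodes the gamma subunit of the eye's Gq protein, which carries the signal from rhodopsin to the phospholipase. Its counts were 104955, 112272, 118022, 121063 and 122732 in LPHC replicates 1 to 5, and 91896, 102702, 107213, 97888 and 109999 in HPLC replicates 1 to 5. The diets overlapped, since LPHC replicate 1 lay among the HPLC libraries, and 3 of 5 HPLC libraries lay below all of LPHC. The log2 fold change was −0.18 ± 0.07 (limma adjusted p = 0.0439). The call was lost in 7 of the 10 fits that each left out 1 library, with adjusted p between 0.0204 and 0.108 over the 10. It held when the library left out was LPHC replicate 1 or either of HPLC replicates 3 and 5.

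The effector norpA encodes the phospholipase C of the cascade, without which flies are blind. Its counts ran from 50316 to 68109 on LPHC and from 48700 to 64117 on HPLC, with medians of 59673 and 56491. The ranges overlapped almost fully, and the log2 fold change was −0.09 (95% interval −0.27 to 0.10, limma adjusted p = 0.448).

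The light-gated channels are encoded by trp, the founding gene of the TRP family, and by trpl, its relative. Counts of trp were 103371, 121339, 111664, 111686 and 102834 in LPHC replicates 1 to 5, and 105392, 112394, 106138, 115720 and 110325 in HPLC replicates 1 to 5. Every HPLC value lay inside the LPHC range. The log2 fold change of trp had a 95% interval of −0.14 to 0.14 (limma adjusted p = 0.995), and the mean on HPLC was 0.998 times that on LPHC. Counts of trpl were 259073, 306075, 294608, 314336 and 312274 on LPHC, and 262943, 285151, 243124, 294611 and 271688 on HPLC, in the same order. HPLC replicate 3 was the lowest of the 10, and the other HPLC libraries lay within the LPHC range. For trpl the log2 fold change was −0.13 (95% interval −0.29 to 0.03, limma adjusted p = 0.176). The ratio of trpl to trp counts was 2.70 ± 0.223 on LPHC and 2.47 ± 0.104 on HPLC, with overlapping ranges.

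The INAD complex includes the scaffold itself, encoded by inaD, and the eye protein kinase C, encoded by inaC. Counts of inaC were 28813, 30115, 26641, 27847 and 29734 in LPHC replicates 1 to 5, and 18114, 25447, 25255, 25279 and 24405 in HPLC replicates 1 to 5. No HPLC library reached the lowest LPHC library, and HPLC replicate 1 was far below the other HPLC libraries. For inaC the log2 fold change was −0.28 ± 0.09 (limma adjusted p = 0.0159). With ninaE, inaC made 2 of 10 genes whose diets did not overlap, both lower on HPLC, beside 11.7% of tested genes without overlap in that direction and 17.4% in the other. Of the ratios taken between cascade genes, only that of inaC to trp did not overlap, at 0.239 to 0.289 on LPHC and 0.172 to 0.238 on HPLC. The margin was thin (0.2386 against 0.2379). Since trp was nearly equal on the 2 diets, this ratio largely repeats the fall of inaC.

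Counts of inaD ran from 16724 to 21123 on LPHC and from 12329 to 18522 on HPLC, and HPLC replicate 1 alone lay below the LPHC range. The log2 fold change was −0.15 (95% interval −0.36 to 0.07, limma adjusted p = 0.259). The exons of inaD overlap those of the ribosomal protein gene RpL23 on the opposite strand in the reference annotation. How the authors' counting treated strand is not given in the sources used here. Reads of the 2 genes may not have been told apart. The gene ninaC encodes a myosin joined to a protein kinase, which is found in the rhabdomere and takes part in ending the light response. Its counts ran from 115306 to 142710 on LPHC and from 95328 to 132093 on HPLC, with overlapping ranges and a log2 fold change of −0.07 (95% interval −0.26 to 0.12, limma adjusted p = 0.587).

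The arrestins stop the response by binding activated rhodopsin, and Arr2 is the main visual arrestin of the fly. Counts of Arr2 were 471333, 534474, 437176, 447157 and 511116 in LPHC replicates 1 to 5, and 339218, 445581, 477923, 447196 and 488822 in HPLC replicates 1 to 5. HPLC replicate 1 alone lay below the LPHC range. Counts of Arr1 were 409026, 387033, 341748, 325373 and 375779 on LPHC, and 264789, 334628, 366712, 333609 and 344174 on HPLC, in the same order. Again only HPLC replicate 1 was below every LPHC library. Neither arrestin passed the test, with log2 fold changes of −0.17 for Arr1 (limma adjusted p = 0.155) and −0.13 for Arr2 (limma adjusted p = 0.279). The ratio of Arr2 to Arr1 counts was 1.31 ± 0.0968 on LPHC and 1.34 ± 0.0530 on HPLC.

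As a share of the table's total, the 10 genes together took 11.1% to 12.2% on LPHC and 8.26% to 10.2% on HPLC, and these ranges did not overlap. Without ninaE the other 9 took 5.51% to 6.16% on LPHC and 4.33% to 5.30% on HPLC. The total itself was 26705212 to 28022121 normalised counts on LPHC and 28541402 to 29666492 on HPLC. Equal counts thus give a lower share on HPLC, and these gaps in share are not gaps in summed counts, which were not compared. HPLC replicate 1 had the lowest share in both sums. Without that library 2 of 10 genes were called lower, ninaE at −0.25 (limma adjusted p = 0.00979) and inaC at −0.19 (limma adjusted p = 0.0246), beside 18.2% of tested genes. The median log2 fold change of the 10 genes was then −0.07, and 8 were below 0.

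**Figure D2:**
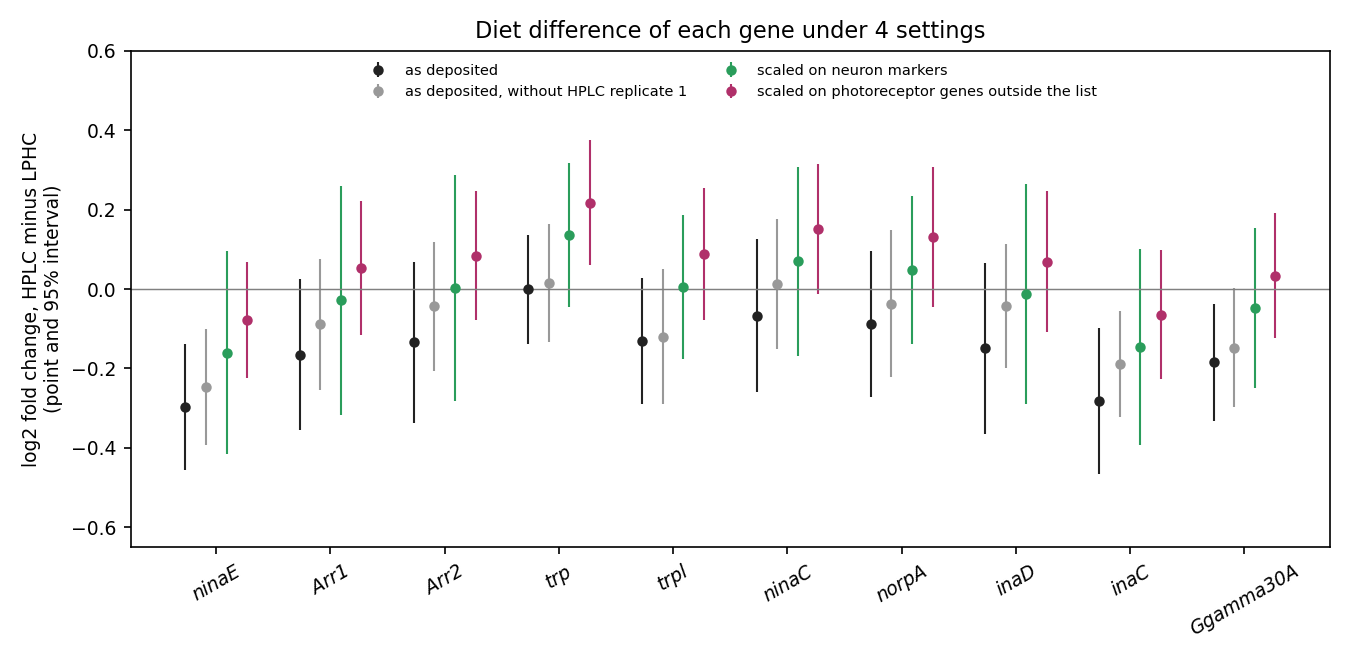
Log2 fold change of each cascade gene (HPLC minus LPHC) with its 95% interval under 4 settings, from limma. The settings are as deposited, without HPLC replicate 1, scaled on neuron markers, and scaled on photoreceptor genes other than those drawn. As deposited, the intervals of ninaE, inaC and Ggamma30A lie below 0, and under photoreceptor scaling ninaE is at −0.08 and trp at 0.22.

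The calls moved with the scaling of the libraries. Upper-quartile scaling called 7 of 10 lower, beside 38.7% of all tested genes, and library totals called 5, beside 29.4%. Quantile normalization called 4, beside 39.4%: inaC, Ggamma30A, norpA (limma adjusted p = 0.0278) and inaD (0.0364). It cannot show a change in ninaE, Arr2, Arr1 or trpl, which held the same rank in every library. TMM scaling called 2, beside 16.2%, and a fit with no filter called 2, beside 15.5%; both lost Ggamma30A. On the recovered reads, edgeR called ninaE, inaC and Ggamma30A lower (beside 18.9% of tested genes), and so did DESeq2 (19.6%). With empirical Bayes without the robust option only inaC was called, beside 18.7%, and the adjusted p of ninaE was 0.212.

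When libraries were scaled on 21 neuron markers, 0 of 10 cascade genes were called, beside 2.46% of tested genes lower and 25.9% higher. The log2 fold change of ninaE was then −0.16 (limma adjusted p = 0.370) and that of inaC −0.15 (0.403). As deposited, 8 of the 21 markers were called lower and 0 higher, with a median of −0.14. This fit shows change relative to the markers and cannot show a fall shared with them. When libraries were scaled on 12 photoreceptor genes outside the 10, ninaE was at −0.08 (limma adjusted p = 0.392) and inaC at −0.06 (0.543). The 12 were chp, eys, PIP82, Pph13, Rh3, Rh4, Rh6, rdgA, rdgC, Gbeta76C, rtp and CarT. Some of them, such as Gbeta76C, rdgA and rdgC, belong to phototransduction. As deposited, Gbeta76C, rdgA, rdgC, Rh3, Rh4, Pph13, PIP82 and CarT were called lower, while chp, Rh6, rtp and eys were not. The fit shows change relative to the 12 genes and cannot show a change shared with them. In that fit 0 of 10 were called lower, beside 1.88%, and 1 was called higher, beside 42.1%: trp, at 0.22 (limma adjusted p = 0.0234).

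The second question was whether the other cascade genes changed by the same factor as ninaE. After each library was scaled to equal ninaE, trp and ninaC were called higher, and no gene was called lower. The 2 genes of 9 stood beside 52.2% of all 9895 tested genes called higher and 1.1% lower, since ninaE itself was lower on HPLC. All 9 log2 fold changes were above 0, with a median of 0.16, where the median of all tested genes was 0.27. Per 100 ninaE counts, trp had 6.60, 7.93, 7.23, 6.96 and 5.94 in LPHC replicates 1 to 5, and 9.37, 8.70, 7.61, 8.94 and 7.88 in HPLC replicates 1 to 5. LPHC replicate 2 lay among the HPLC libraries. The log2 fold change of trp relative to ninaE was 0.30 ± 0.09 (limma adjusted p = 0.00846), and the call held without any 1 library. That of ninaC was 0.23 ± 0.09 (limma adjusted p = 0.0346), and it was lost in 7 of the 10 fits that left out a library. For inaC it was 0.01 (95% interval −0.17 to 0.19, limma adjusted p = 0.898), the value nearest to 0 among the 9.

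**Figure D3:**
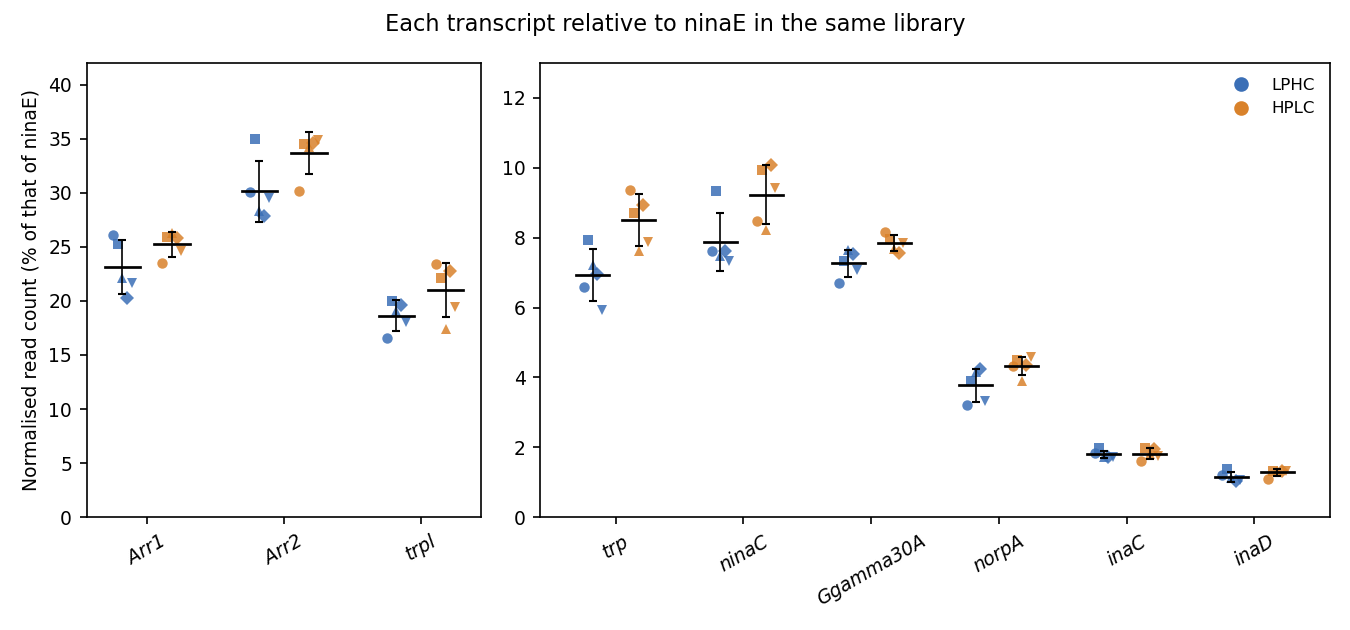
Count of each of the other 9 cascade genes per 100 ninaE counts (percent), by library and diet. Marker shapes are replicates 1 to 5 (circle, square, triangle, diamond, inverted triangle), the line is the mean and the bar the SD (n = 5). For trp, 6.93 ± 0.740 on LPHC stands beside 8.50 ± 0.736 on HPLC.

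Levels of the cascade genes were next set beside each other per kilobase of the longest annotated transcript, and by the shortest where stated. On that scale ninaE had 1004677 ± 51394 normalised counts per kilobase on LPHC, Arr2 had 310440 ± 26892 and trpl had 76361 ± 5829. The channel trp had 26556 ± 1825, and ninaC had 23676 ± 2006, or 34375 ± 2913 by its shortest transcript, so the order of this pair was not resolved. The genes inaC (12178 ± 602), inaD (7902 ± 729) and norpA (7584 ± 857) were lower, and the last pair did not differ beyond their spread. Annotated Ggamma30A transcripts ran from 849 to 12225 bases, so its place in this order was not resolved, and Arr1 lay at 158054 or 271233 by its longest or shortest transcript, between trpl and Arr2 either way.

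Within a diet the cascade genes tended to move together. After each diet's mean was removed, 41 of 45 pairs of genes had a positive Pearson correlation over the 10 libraries, with a median of 0.49. The highest was 0.96, between Arr2 and inaD, and the lowest −0.32, between Arr1 and trpl. These pairs share libraries and their scaling, and HPLC replicate 1 was low for most of them. Pairs of genes outside the 10 were not examined in this way. Among 8813 other genes, those most like the mean of the cascade genes after removal of diet means were Osi2 (r = 0.97, n = 10 libraries), firl (0.96), egr (0.95), Tmem63 (0.94), boss (0.93), CG17739 (0.93), Timp (0.93) and hoe2 (0.93). With diet means kept they were Osi2 (0.97), CG17739 (0.96), Hdc (0.95) and CG7342 (0.94). Hdc encodes the histidine decarboxylase that makes the photoreceptor transmitter histamine. Spearman correlations were lower, at 0.75 to 0.89 with diet means removed and 0.73 to 0.94 with them kept. HPLC replicate 1 was far below the other HPLC libraries for Osi2, firl, egr, CG17739, Timp and hoe2, and so weighs on their Pearson values.

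Other genes of the pathway were read from lists. Their counts stand beside 18.9% of all tested genes called lower and 22.1% called higher. Of 23 further phototransduction genes tested, 9 were called lower and 1 higher, with a median log2 fold change of −0.16. Gbeta76C, the beta subunit of the same G protein, was at −0.29 (limma adjusted p = 0.0206), and rdgC, a rhodopsin phosphatase, at −0.22 (0.0164). The lipid cycle genes Pis, a phosphatidylinositol synthase, and Cds were at −0.30 (0.00121) and −0.24 (0.00988). The kinase gene rdgA, which acts on diacylglycerol, was at −0.20 (0.0307), and Galphaq, the alpha subunit, did not pass at −0.18 (0.0719). The gene called higher was Pld, a phospholipase D, at 0.59 (limma adjusted p = 9.07e-06). The direction of rdgA and rdgC turned under photoreceptor scaling, which used both of them.

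Of 12 minor rhodopsin and chromophore genes, 4 were called lower and 4 higher, beside 18.9% and 22.1% of all tested genes. The opsins Rh4 (−0.26, limma adjusted p = 0.00332) and Rh3 (−0.19, 0.0299) were lower, while Rh5 (−0.22, 0.537) and Rh6 (−0.14, 0.537) did not pass. Genes of chromophore supply differed in direction. The carotenoid cleavage enzyme gene ninaB was higher on HPLC (0.49, limma adjusted p = 8.52e-06), as was ninaD, a scavenger receptor for carotenoid uptake (0.93, 0.00014), whereas ninaG was lower (−0.34, 0.0004).

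The counts of the next 4 lists also stand beside 18.9% of all tested genes called lower and 22.1% called higher. Whether the genes of these lists are read only in cells of the eye was not examined. Of 8 photoreceptor transmitter genes, 5 were called lower and 1 higher. Among those lower was CarT, a carcinine transporter, at −0.42 (limma adjusted p = 2.42e-05). Of 16 eye transcription factors, 8 were lower and 0 higher, with gl, a regulator of photoreceptor fate, at −0.28 (limma adjusted p = 0.00026). Of 11 photoreceptor structure genes, 3 were lower and 0 higher, and chp did not pass at −0.09 (0.483). Of 16 cone, pigment cell and lens genes, 1 was lower and 4 higher. The lower gene, santa-maria, is also on the minor rhodopsin and chromophore list and is counted there too. The lens gene retinin had 11834 ± 633 on LPHC and 11971 ± 2910 on HPLC, and Crys had 81.2 ± 21.5 and 83.7 ± 17.7. The white gene w, mutated in this strain, had 32.8 ± 6.60 and 32.2 ± 8.94.

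Lists of markers of other cell types also differed between diets. They were chosen with earlier results of these data known, so their counts describe the lists and do not test a shift of cell types. Of all tested genes 18.9% were called lower and 22.1% higher. Shares are of the table's total, which was larger in every HPLC library. Of 21 neuron markers, 8 were lower and 0 higher, with a median of −0.14, as for the cascade genes, and a summed share of 1.48% to 1.73% on LPHC and 1.24% to 1.47% on HPLC. Of 17 muscle markers, 10 were lower and 0 higher, with shares of 0.727% to 0.807% and 0.634% to 0.649%. Of 14 glia markers, 0 were lower and 6 higher, with shares of 0.248% to 0.274% and 0.269% to 0.317%. All 15 tested of 18 fat body markers were higher, with shares of 0.156% to 0.187% and 0.698% to 0.869%. The other 3, Lsp1gamma, Fbp1 and Fbp2, fell below the filter on low values and showed no such rise. Fbp1 ran from 2.09 to 22.3 normalised counts on LPHC and from 4.37 to 12.3 on HPLC. Lsp2 (0.695 to 6.43 on LPHC) and fit (1.07 to 5.58) passed that filter only through their HPLC values. No list had a marker at 0 in every library, but no gene of the deposited table could, since each had a read in at least 6 libraries. The part of these shifts in the values of the cascade genes was not tested.

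**Figure D4:**
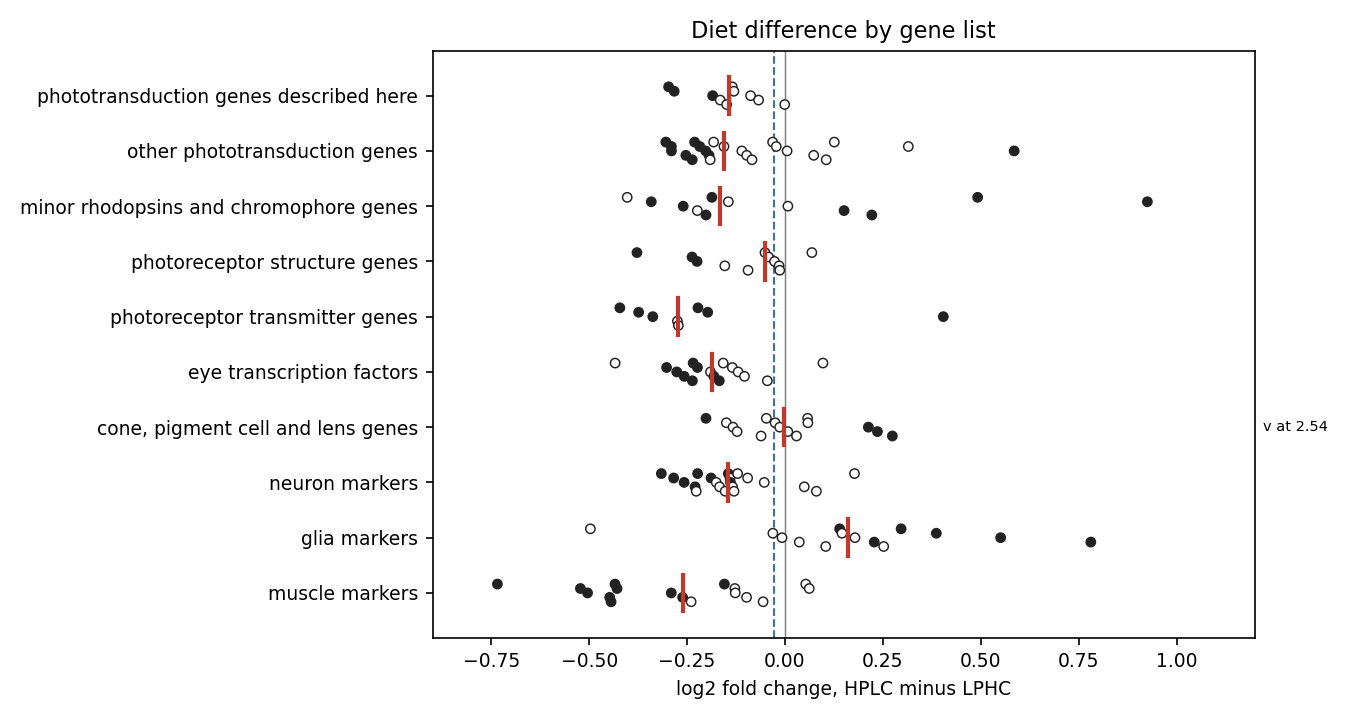
Log2 fold change (HPLC minus LPHC) of each tested gene by list; fat body markers are not drawn, and v, at 2.54, lies outside the axis. Filled points have a limma adjusted p under 0.05, the red bar is the list's median and the dashed line the median of all tested genes (−0.03).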

How the data were processed

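Brain RNA was sequenced in 10 libraries, per the labels' protocols after Trizol extraction and standard Illumina library preparation. The authors deposited 1 table of normalised counts per gene, a signal that is never negative. Per the submitters' processing notes HISAT2, a read aligner, was used. The counting tool, its treatment of strand, the build and all versions were not given in the sources used here. No coordinates are printed. In the deposited signal 100% of values were whole multiples of 1 constant per library, within 1e-06 of a whole number, and the constants matched DESeq2 size factors recomputed from those reads (ratio 1.00). Each value is thus a read count divided by the size factor of its library.

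Diets were compared with limma-trend (version 3.58.1 in R 4.3.3, with robust empirical Bayes) on log2(value + 1) on 9896 genes whose mean reached 10, two-sided, HPLC minus LPHC, Benjamini-Hochberg threshold 0.05. A second fit first scaled each library to equal ninaE. The scripts were tested on simulated data. edgeR 4.0.16 (quasi-likelihood) and DESeq2 1.42.0 ran on the recovered reads. The alternatives also took in a pseudocount of 0.5 or 5, a filter of 0 or 50 on the mean, TMM, upper-quartile, quantile, neuron-marker, photoreceptor and total scaling, non-robust empirical Bayes, a replicate block and leaving out each library. Transcript lengths and exon overlaps came from the Ensembl annotation supplied.

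The members and the 10 other lists were chosen with earlier results of these data known. Named genes were the members, a set of eye genes, up to 4 called genes per list by smallest adjusted p (2 where none was called), and the 8 and 4 genes most like the members' mean, among genes with a mean of at least 50. Replicate pairs all differed by more than sampling noise (chi-square divided by its degrees of freedom, 5.06 to 50.5).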

Additional observations from a re-analysis of the deposited data

Results flagged for a closer look

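In 144 groups of 5 libraries, 18 had 1 library far from the others by Dixon's criterion, which chance meets in about 1 of 20 groups. HPLC replicate 1 was the low library in 11 of the 18. Among cascade genes it was low for Arr2 (339218 normalised counts), inaD (12329) and inaC (18114), and for the summed share of the 10 genes (8.26% of the total). It was also low for prom (5405) and for genes picked because they followed the cascade genes: Osi2 (1643), firl (783), egr (792), CG17739 (12530), Timp (3379) and hoe2 (2439).

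HPLC replicate 3 was low for rdgB (9197) and unc-13 (23596) and high for TpnC41C (602) and wupA (7456). LPHC replicate 2 was low for Pis (14644) and CarT (8073), and LPHC replicate 1 for Eaat2 (25985).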

How the results depend on the processing

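The number of cascade genes called between diets was 3, all lower. It became 7 with upper-quartile scaling, 5 with library totals and 1 with non-robust empirical Bayes, again all lower. It became 1 with photoreceptor scaling (trp, called higher) and 0 with neuron-marker scaling. The median of all tested genes was −0.14, −0.09, −0.03, 0.19 and 0.11 in these fits, in that order. Leaving out 1 library gave 2 to 3 calls between diets and 1 to 4 relative to ninaE (2 with all libraries). Photoreceptor scaling turned trp to 0.22, Ggamma30A to 0.034, rdgA to 0.016, rdgC to 0.00072, Rh3 to 0.032, Pph13 to 0.036, Timp to 0.011 and Hdc to 0.021. In 61 further cases a value called in neither fit crossed 0 (values within 1e-09 of 0 were taken as 0). Replicate numbers did not pair the libraries (same-number correlations −0.025 to 0.0050), and a replicate block gave 3 calls, as without it. The lowest cascade value was 12329 normalised counts (inaD), where counting error is small beside the spread between libraries. The causes of these shifts were not tested.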
